A study of Glycine max with 6 samples.

Results

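The genes described here are the 57 soybean genes of glyoxylate and photorespiratory metabolism, out of 45967 genes measured in leaves. They were taken by annotation: every gene that the deposited table assigns to the KEGG pathway of glyoxylate and dicarboxylate metabolism, without the genes that are also assigned to photosynthetic carbon fixation or to the citrate cycle and without Rubisco and catalase genes. A sum of at least 60 counts over the 6 libraries was also required. It removed 1 of 58 genes, the isocitrate lyase entry GLYMA_12G100500, with 16 counts in all. The members nearest to the minimum on the other side were GLYMA_01G208000 with 116 counts and GLYMA_19G009000 with 198 counts. The rule uses the annotation and the summed counts, not the difference between the groups. All 57 genes passed the filter on low counts of the test. They fall into 19 enzyme families by Enzyme Commission (EC) number. The 3 members without an EC number are H proteins of glycine cleavage by their Gene Ontology (GO) terms. The table describes each of the 57 as a hypothetical protein, so every enzyme name below is an annotation.

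Leaves of HN95, a soybean cultivar labelled as wild type, were sampled from 2 groups of plants, both under saline-alkaline stress. The MSN group (3 libraries) had been sprayed on the leaves with mesoporous silica nanoparticles, which are porous particles of silicon dioxide, at 20 mg/L, and the control group (3 libraries) consisted of stressed plants of the same cultivar named as the control in the titles. The stress that both groups share was a solution (3 L to 20 kg of soil) that held sodium chloride and sodium carbonate, each at 40 mM, and sodium bicarbonate and sodium sulfate, each at 320 mM. Leaves were taken 7 days after the spray. As treatment the tags of the 3 MSN libraries give 20, 21 and 22 mg/L, whereas titles and protocol name a single treatment. No unstressed plants are among the libraries, and the labels name neither a spray for the control leaves nor the age of the plants. The title of the study names photosynthetic carbon metabolism under salt and alkali stress as its subject.

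Photorespiration recycles the phosphoglycolate that forms when Rubisco fixes oxygen in place of carbon dioxide. Phosphoglycolate is dephosphorylated in the chloroplast, oxidised to glyoxylate and aminated to glycine in the peroxisome, and converted from glycine to serine in the mitochondrion with loss of carbon dioxide and ammonia. Serine returns through hydroxypyruvate and glycerate to the Calvin cycle, and glutamine synthetase recaptures the ammonia. Malate synthase belongs instead to the glyoxylate cycle, known best from oil-storing seedlings, where it uses acetyl-CoA.

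Library totals were 63981150 to 67923813 counts in MSN and 65537749 to 67795796 counts in control. Counts piled up at 4 and 8. The value 4 made up 17.7 to 19.0% of all counts between 1 and 12, and what causes this was not tested. Across genes, pairs of libraries correlated in log2 CPM, the scaled count, at 0.982 to 0.985 inside a group and at 0.925 to 0.928 from MSN to control. No library stood apart from its group. Summed over the photosynthesis genes that stand for leaf mesophyll, the level was 18942 to 19617 FPKM in MSN leaves and 12714 to 13149 FPKM in control leaves. FPKM is the authors' count scaled by gene length and library total, and it is used below wherever levels of different genes are set side by side.

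MSN and control leaves differed in most of the 57 genes, in both directions. In MSN leaves 26 genes were higher and 24 were lower, and 7 did not pass the test (edgeR quasi-likelihood test, Benjamini-Hochberg adjusted p under 0.05 over all 39203 genes tested). Calls in either direction took 87.7% of the members and 59.3% of all genes tested. By direction the members' shares were 45.6% higher and 42.1% lower, against 29.6% higher and 29.7% lower among all genes tested. Calls were more frequent among abundant genes. At 100 FPKM and above 50.4% of all genes were higher and 37.5% lower, and below 10 FPKM 28.3 and 24.1%. Of the members, 12 stood at 100 FPKM and above and 29 at 10 to 100 FPKM. How much level adds to the members' shares was not tested. The median log2 fold change was -0.016 over the members and 0.0055 over all genes tested. Most changes were moderate. A change of at least 1 on the log2 scale was reached upward by 4 members (7.02%, against 9.27% of all genes) and downward by 4 members (7.02%, against 7.01%), shares near or below the background. In 49 of 57 members the 3 MSN values and the 3 control values did not overlap in CPM (86.0%, against 65.0% of all genes). MSN lay above in 25 of them (43.9%, against 32.8%) and below in 24 (42.1%, against 32.2%). The titles call the replicates biological, without saying which plants or pots they came from, and p-values measure the spread between these libraries alone.

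Although nearly as many genes fell as rose, the summed RNA of the set was higher in MSN leaves, and the most abundant genes were nearly all among those that rose. Summed over the 57 genes the level was 4015, 3943 and 4077 FPKM in the MSN libraries, against 2569, 2484 and 2527 FPKM in the control libraries, a ratio of means of 1.59. The members took 0.806 to 0.831% of all FPKM in MSN leaves and 0.525 to 0.541% in control leaves. Of the 12 members with a mean of 100 FPKM and above, 11 were higher and 1 was lower in MSN. Over all genes of that level, 50.4% were higher and 37.5% lower. Of the 29 members at 10 to 100 FPKM, 12 were higher and 16 lower (31.9 and 43.8% of all genes at that level), and of the 16 members below 10 FPKM, 3 were higher and 7 lower (28.3 and 24.1%). These levels include the MSN libraries. By control level alone, 11 of 12 members at 100 FPKM and above were higher and 1 lower, against 35.9% higher and 51.7% lower among all genes of that control level. At a control level of 10 to 100 FPKM, 10 of 28 members were higher and 17 lower, against 26.9% higher and 48.9% lower. Below 10 FPKM in control, 5 of 17 were higher, 6 lower and 6 not past the test, against 30.5% higher and 21.8% lower. By role, in the photorespiratory core 21 of 35 genes were higher and 10 lower (median log2 fold change 0.47). Among the 22 genes outside the core 5 were higher and 14 lower (median -0.37). Shares among all genes tested were 29.6% higher and 29.7% lower. The summed level of these 22 genes was nevertheless higher in MSN, at 704 ± 21.5 FPKM against 589 ± 10.2 FPKM in control (SD, n = 3 each). Glutamine synthetase held 535 FPKM of this sum in MSN and 384 FPKM in control.

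**Figure D1:**
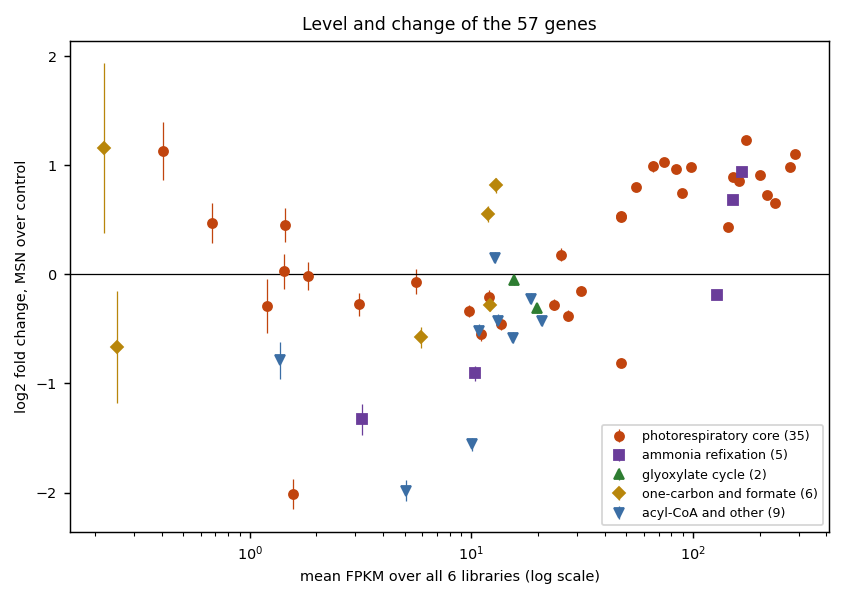
Each point is 1 of the 57 genes. The x axis gives its mean FPKM over all 6 libraries (log scale), the y axis its log2 fold change, MSN over control, with the standard error as a bar, and the shape gives the role, with the number of genes in brackets. Of the 12 genes at 100 FPKM and above, 11 lie above 0, and the 1 below is a glutamine synthetase gene.

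The photorespiratory core held most of the RNA. Its 35 genes summed to 3308 ± 45.6 FPKM in MSN leaves and 1938 ± 33.5 FPKM in control leaves (SD, n = 3 each), a ratio of 1.71. This was 82.5 ± 0.247% of the members' FPKM in MSN and 76.7 ± 0.178% in control. The photosynthesis genes named above moved with it: 81 of the 94 tested (of 97 genes) were higher and 9 lower, none of them a member. Over all genes tested, 29.6% were higher and 29.7% lower. In bulk leaf RNA, fewer cells of a type and less RNA per cell cannot be told apart, and the part that mesophyll content had in the result was not tested.

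**Figure D2:**
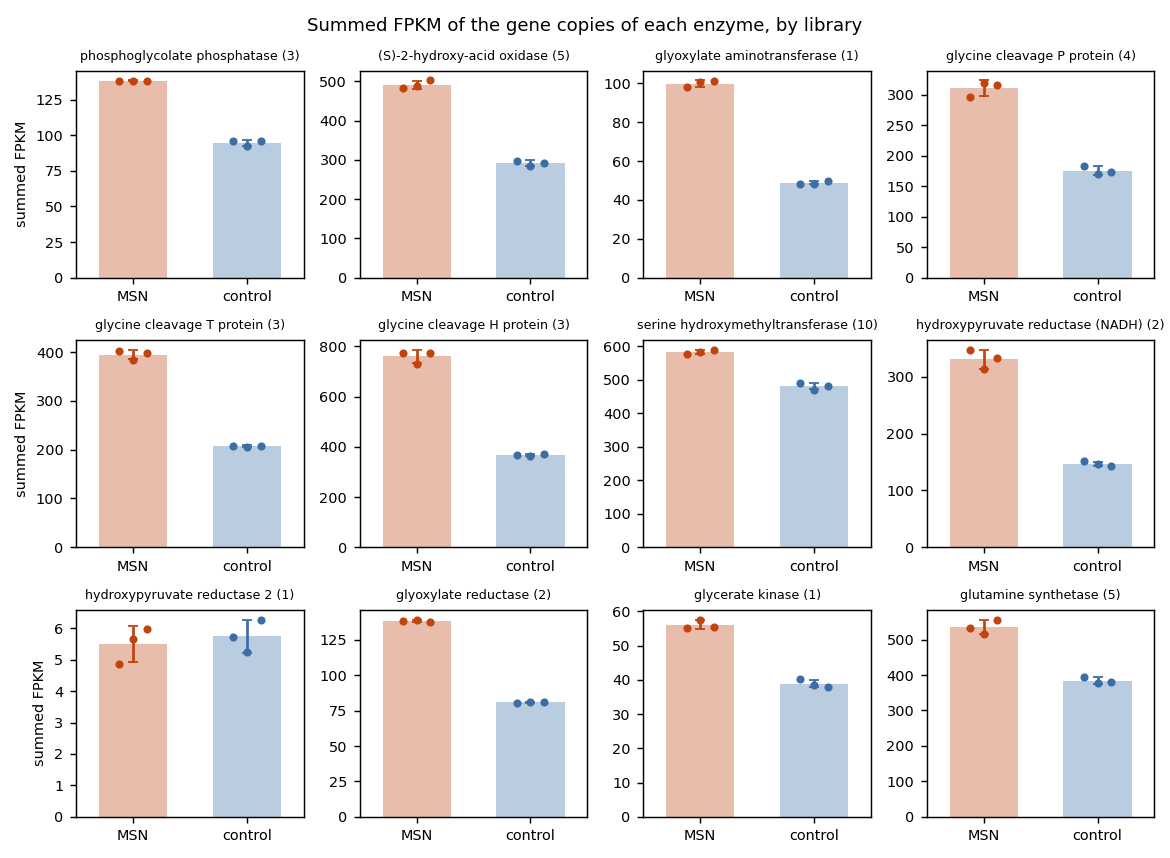
Summed FPKM of the gene copies of each core enzyme and of glutamine synthetase, with the number of copies in brackets. Dots are libraries, bars the mean of 3 and error bars the SD. In 11 of the 12 panels every MSN dot lies above every control dot, and in hydroxypyruvate reductase 2 the groups overlap.

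Phosphoglycolate phosphatase, which opens the pathway, has 3 entries (EC 3.1.3.18), each with a cytosol GO term in the table. GLYMA_18G244900 (chromosome 18, 53258358 to 53264479, plus strand) stood at 71.7, 69.4 and 70.0 FPKM in the MSN libraries, against 39.8, 39.6 and 41.5 FPKM in the control libraries. Its log2 fold change was 0.80 (SE 0.04, edgeR adjusted p = 1.16e-12). GLYMA_09G247900 (chromosome 9, 46925730 to 46931501, minus strand) had 54.8, 57.2 and 56.9 FPKM in MSN and 39.9, 37.8 and 38.3 FPKM in control, with a log2 fold change of 0.54 (SE 0.04, edgeR adjusted p = 7.58e-10). In control leaves these 2 copies were near each other, and in MSN leaves the first was clearly the higher. The least abundant copy, GLYMA_09G015500, went the other way: 11.8, 11.6 and 10.9 FPKM in MSN and 16.2, 15.1 and 15.9 FPKM in control, without overlap (log2 fold change -0.46, SE 0.05, edgeR adjusted p = 8.42e-07). Summed, the enzyme stood at 138 ± 0.239 FPKM in MSN leaves and 94.7 ± 1.94 FPKM in control leaves.

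The (S)-2-hydroxy-acid oxidases (EC 1.1.3.15) include glycolate oxidase, the peroxisomal flavoenzyme that makes glyoxylate and hydrogen peroxide. Nearly all of their RNA came from 2 of the 5 genes, and both were higher in MSN leaves. GLYMA_15G250800 (chromosome 15, 47892521 to 47898180, minus strand) had 267, 268 and 273 FPKM in MSN and 165, 157 and 163 FPKM in control (log2 fold change 0.73, SE 0.03, edgeR adjusted p = 5.69e-13). GLYMA_08G175800 (chromosome 8, 14037039 to 14042017, plus strand) had 201, 207 and 217 FPKM in MSN and 118, 113 and 113 FPKM in control (log2 fold change 0.86, SE 0.04, edgeR adjusted p = 2.98e-13). In each gene the lowest MSN library lay far above the highest control library. GLYMA_05G141400, at 11.6, 11.5 and 10.3 FPKM in MSN and 12.6, 12.4 and 13.4 FPKM in control, fell by 0.20 on the log2 scale (SE 0.06, edgeR adjusted p = 0.00739). The last 2 copies are neighbours on chromosome 8, 1170 bp apart, and the labels do not say how reads shared between such copies were counted. GLYMA_08G096700 was barely expressed, at 0.599, 0.593 and 0.488 FPKM in MSN and 0.266, 0.235 and 0.251 FPKM in control, and rose by 1.13 on the log2 scale (SE 0.27, edgeR adjusted p = 0.00135). GLYMA_08G096800, at 1.41, 1.36 and 1.58 FPKM in MSN and 1.678, 1.172 and 1.402 FPKM in control, did not pass the test, and its groups overlapped.

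A single member carries the peroxisomal aminotransferase step that turns glyoxylate into glycine with serine or alanine as the donor (EC 2.6.1.45 and 2.6.1.44). GLYMA_08G302600 (chromosome 8, 42074080 to 42079734, minus strand) had 98.1, 101 and 101 FPKM in MSN, against 48.4, 48.3 and 49.9 FPKM in control. The groups were far apart beside a within-group spread of 1.58 FPKM in MSN and 0.891 FPKM in control (SD, n = 3 each). Its log2 fold change was 1.03 (SE 0.03, edgeR adjusted p = 1.6e-14).

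Glycine cleavage is carried out in the mitochondrion by a complex of P, T, H and L proteins. P decarboxylates glycine, H carries the intermediate on its lipoyl arm, T passes the carbon to tetrahydrofolate and L reoxidises H. The 10 P, T and H genes summed to 1465 ± 28.4 FPKM in MSN leaves and 750 ± 12.3 FPKM in control leaves (SD, n = 3 each), a ratio of 1.95. Of these genes 7 were higher and 1 lower, beside 29.6% higher and 29.7% lower among all genes tested. The H protein had the most RNA. GLYMA_11G042200 (chromosome 11, 3090092 to 3092086, minus strand) had 400.1, 379 and 403 FPKM in MSN and 184, 179 and 184 FPKM in control (log2 fold change 1.11, SE 0.04, edgeR adjusted p = 6.58e-15). GLYMA_01G199700 (chromosome 1, 53347895 to 53349718, plus strand) had 374, 350.3 and 370.1 FPKM in MSN and 183, 182 and 187 FPKM in control (log2 fold change 0.98, SE 0.04, edgeR adjusted p = 5.05e-14). The 2 H genes overlapped in level in control leaves, and in MSN leaves each library of the first lay above every library of the second. The third H entry, GLYMA_20G019700, had 0.995, 1.262 and 0.972 FPKM in MSN and 1.483, 1.288 and 1.169 FPKM in control and did not pass the test (edgeR adjusted p = 0.332).

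The P protein, glycine dehydrogenase (EC 1.4.4.2), had 2 abundant copies that rose and 2 scarce copies that went opposite ways. GLYMA_14G094700 (chromosome 14, 8801566 to 8808263, minus strand) had 188, 203 and 200 FPKM in MSN and 111, 101 and 105 FPKM in control (log2 fold change 0.89, SE 0.04, edgeR adjusted p = 7.08e-13). GLYMA_17G228800 (chromosome 17, 38383184 to 38389776, plus strand) had 107, 116 and 115 FPKM in MSN and 69.4, 65.5 and 65.5 FPKM in control (log2 fold change 0.75, SE 0.04, edgeR adjusted p = 6.12e-12). GLYMA_06G052100 (chromosome 6, 3920327 to 3926372, minus strand), annotated with the same activity and complex, had the largest fall of the 57 genes: 0.667, 0.548 and 0.662 FPKM in MSN and 2.75, 2.23 and 2.59 FPKM in control. It fell by 2.01 on the log2 scale (SE 0.14, edgeR adjusted p = 5.17e-10), at a level that adds little to the enzyme's total. The last copy, GLYMA_04G051200, had 0.627, 0.909 and 0.834 FPKM in MSN and 0.552, 0.509 and 0.642 FPKM in control, with overlapping groups. Its log2 fold change of 0.47 passed the test (SE 0.18, edgeR adjusted p = 0.0355), but not without MSN replicate 2, MSN replicate 3, control replicate 1 or control replicate 2 (edgeR adjusted p of 0.159, 0.101, 0.0786 and 0.114 in that order). The call was also lost with quantile normalization, without the filter on low counts and in the limma fits on FPKM that held this gene.

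The T protein, aminomethyltransferase (EC 2.1.2.10), had 2 abundant copies and both rose. GLYMA_17G012000 (chromosome 17, 938469 to 941341, minus strand) had 267, 254 and 265 FPKM in MSN and 139, 138 and 140 FPKM in control (log2 fold change 0.91, SE 0.03, edgeR adjusted p = 2.33e-14). GLYMA_07G262100 (chromosome 7, 43685599 to 43688495, plus strand) had 133, 128 and 132 FPKM in MSN and 66.5, 65.4 and 66.3 FPKM in control (log2 fold change 0.98, SE 0.03, edgeR adjusted p = 2.78e-14). GLYMA_15G109300, at 1.773, 1.919 and 1.794 FPKM in MSN and 2.07, 1.72 and 1.76 FPKM in control, overlapped between the groups and did not pass (edgeR adjusted p = 0.922). The L protein, dihydrolipoyl dehydrogenase, is shared with the citrate cycle annotation and so is not a member. Of its 4 genes 2 were higher, led by GLYMA_17G037900 with 126 ± 3.2 FPKM in MSN and 69.6 ± 2.2 FPKM in control (log2 fold change 0.85, edgeR adjusted p = 1.02e-12), and 2 were lower.

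Serine hydroxymethyltransferase (EC 2.1.2.1), which joins the methylene group from glycine cleavage to a further glycine to give serine, has the largest family here, with 10 genes. Its summed level was 583 ± 6.09 FPKM in MSN leaves and 481 ± 9.27 FPKM in control leaves, a ratio of 1.21 that was smaller than for the steps on either side of it. Behind this sum the copies moved in opposite directions. GLYMA_08G274400 (chromosome 8, 36279886 to 36286158, minus strand), which carries plastid and chloroplast GO terms, had 285, 283 and 291 FPKM in MSN and 184, 179 and 181 FPKM in control (log2 fold change 0.66, SE 0.03, edgeR adjusted p = 1.01e-12). GLYMA_18G150000 (chromosome 18, 27237675 to 27243626, minus strand) had 162, 167 and 167 FPKM in MSN and 123, 119 and 124 FPKM in control (log2 fold change 0.44, SE 0.03, edgeR adjusted p = 1.6e-09).

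The other 8 serine hydroxymethyltransferase genes were less abundant, and 7 of them were lower in MSN leaves, beside 29.7% of all genes tested. GLYMA_05G152100 (chromosome 5, 34563195 to 34565889, plus strand) had 34.1, 35.4 and 33.7 FPKM in MSN and 62.5, 57.5 and 60.3 FPKM in control, and fell by 0.81 on the log2 scale (SE 0.04, edgeR adjusted p = 7.98e-12). In control leaves it came next after GLYMA_18G150000, well above the remaining copies, and in MSN leaves it lay close to GLYMA_14G184500, which had 30.1, 28.9 and 30.1 FPKM in MSN and 33.1, 33.5 and 31.8 FPKM in control. GLYMA_12G170300, at 9.50, 9.45 and 8.07 FPKM in MSN and 13.2, 13.5 and 12.8 FPKM in control, fell by 0.55 on the log2 scale (SE 0.06, edgeR adjusted p = 2.59e-07). GLYMA_14G184500, GLYMA_08G108900, GLYMA_13G222300, GLYMA_08G187800 and GLYMA_02G217100 had log2 fold changes of -0.15, -0.38, -0.28, -0.33 and -0.28, all past the test. The call of GLYMA_02G217100 (edgeR adjusted p = 0.0328) was lost without any 1 of the 3 MSN libraries or without control replicate 3 (edgeR adjusted p of 0.0864, 0.0636, 0.0604 and 0.0839 in that order) and with upper-quartile scaling. GLYMA_06G107800, the scarcest copy at 1.42, 1.83 and 1.76 FPKM in MSN and 1.204, 1.102 and 1.352 FPKM in control, rose by 0.45 on the log2 scale (SE 0.15, edgeR adjusted p = 0.0174). It overlaps the opposite-strand gene GLYMA_06G107900 by 385 bp, which had a mean of 4.67 counts beside its own 259, and its call was lost without MSN replicate 2, MSN replicate 3 or control replicate 2 (edgeR adjusted p of 0.0778, 0.0611 and 0.0627 in that order). Quantile normalization and the limma fit on log2(FPKM + 0.1) lost this call as well. Without this family, 18 of the other 25 core genes were higher and 3 lower (median log2 fold change 0.75), beside 29.6 and 29.7% of all genes tested.

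Hydroxypyruvate reductase with NADH (EC 1.1.1.29), the peroxisomal enzyme that makes glycerate in photorespiration, held the largest rise of the 57 genes. GLYMA_10G281400 (chromosome 10, 50254563 to 50258108, plus strand) had 251, 231 and 246 FPKM in MSN and 104, 103 and 101 FPKM in control, with a log2 fold change of 1.24 (SE 0.04, edgeR adjusted p = 2.49e-15). GLYMA_20G107800 (chromosome 20, 35038552 to 35042864, minus strand) had 95.6, 82.6 and 86.9 FPKM in MSN and 46.8, 43.0 and 43.1 FPKM in control, with a log2 fold change of 0.99 (SE 0.05, edgeR adjusted p = 4.19e-12). Together they reached 331 ± 16.4 FPKM in MSN and 147 ± 3.69 FPKM in control, a ratio of 2.25, the highest of the 19 families. The table gives both genes a cytosol GO term. The entry for hydroxypyruvate reductase 2, known in Arabidopsis as a cytosolic bypass of the peroxisomal enzyme, did not pass the test: GLYMA_07G082000 had 4.87, 5.67 and 5.97 FPKM in MSN and 5.71, 5.24 and 6.28 FPKM in control (edgeR adjusted p = 0.648).

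Glyoxylate reductase with NADPH (EC 1.1.1.79), which removes free glyoxylate by reducing it to glycolate, has 2 entries. GLYMA_13G349100 (chromosome 13, 43889423 to 43893051, plus strand), with a chloroplast GO term, had 111, 114 and 110.1 FPKM in MSN and 58.1, 57.4 and 55.4 FPKM in control (log2 fold change 0.96, SE 0.04, edgeR adjusted p = 1.29e-13). GLYMA_16G028700, with a cytosol term, had 27.9, 25.9 and 27.5 FPKM in MSN and 22.1, 23.7 and 25.6 FPKM in control. Its groups were apart by a narrow margin, and its log2 fold change of 0.18 (SE 0.06, edgeR adjusted p = 0.0142) was no longer past the test without MSN replicate 1, MSN replicate 3 or control replicate 1 (edgeR adjusted p of 0.0569, 0.0590 and 0.0851 in that order). Glycerate kinase (EC 2.7.1.31) closes the pathway by returning glycerate to the Calvin cycle as phosphoglycerate. Its 1 gene, GLYMA_13G361400 (chromosome 13, 44827449 to 44830992, minus strand), had 55.1, 57.6 and 55.5 FPKM in MSN and 40.1, 38.5 and 38.0 FPKM in control, without overlap. The log2 fold change was 0.52 (SE 0.04, edgeR adjusted p = 2.3e-09).

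Set in pathway order, the ratio of summed FPKM, MSN over control, was 1.46 at phosphoglycolate phosphatase, 1.69 at the hydroxy-acid oxidases, 2.04 at the aminotransferase, 1.77, 1.91 and 2.07 at the P, T and H proteins, 1.21 at serine hydroxymethyltransferase, 2.25 at hydroxypyruvate reductase and 1.442 at glycerate kinase. Among these 9, which hold members only, the first and the last enzyme rose less than most steps between them, and serine hydroxymethyltransferase rose least. The aminotransferase value is that of GLYMA_08G302600 alone. The dropped aminotransferase entry GLYMA_02G038100 was more abundant in control leaves (62.1 against 48.9 FPKM). Its ratio of 1.397 lay below both the first and the last enzyme. The 4 dropped L protein genes had a summed ratio of 1.503, slightly above both. The order with these dropped genes included was not tested. The serine hydroxymethyltransferase sum takes all 10 copies, whatever their compartment. Its most abundant copy, GLYMA_08G274400, carries plastid and chloroplast GO terms, and none of the copies carries a mitochondrion GO term. The annotation thus does not single out the mitochondrial step, and 1.21 cannot be read as that step alone. No test was made of the differences between enzymes.

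Glutamine synthetase (EC 6.3.1.2) takes up the ammonia that glycine cleavage releases, and the order of its 5 copies differed between the groups. GLYMA_13G210800 (chromosome 13, 32458378 to 32464314, plus strand) had 216, 213 and 228 FPKM in MSN and 113, 113 and 115 FPKM in control (log2 fold change 0.94, SE 0.03, edgeR adjusted p = 3.17e-14). GLYMA_15G102000 (chromosome 15, 7966059 to 7969696, minus strand) had 187, 179 and 194 FPKM in MSN and 118, 112 and 118 FPKM in control (log2 fold change 0.68, SE 0.04, edgeR adjusted p = 8.07e-12). GLYMA_11G215500 (chromosome 11, 30885378 to 30889724, minus strand) had 118, 117 and 125 FPKM in MSN and 144, 135 and 130.2 FPKM in control, and fell by 0.19 on the log2 scale (SE 0.04, edgeR adjusted p = 0.000676). In MSN leaves this gene ranked 3, below every library of both other genes, and in control leaves it ranked 1, above every library of both. The scarcer copies fell further. GLYMA_09G173200, at 7.63, 6.98 and 7.12 FPKM in MSN and 14.8, 13.2 and 12.7 FPKM in control, fell by 0.91 on the log2 scale (SE 0.07, edgeR adjusted p = 2.2e-09), and GLYMA_07G104500, at 2.129, 1.55 and 1.786 FPKM in MSN and 4.07, 4.45 and 5.18 FPKM in control, by 1.33 (SE 0.14, edgeR adjusted p = 1.69e-07). The family summed to 535 ± 20.1 FPKM in MSN and 384 ± 9.04 FPKM in control. The table gives all 3 abundant copies the same GO compartment, cytoplasm, so it does not separate plastid from cytosolic forms.

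**Figure D3:**
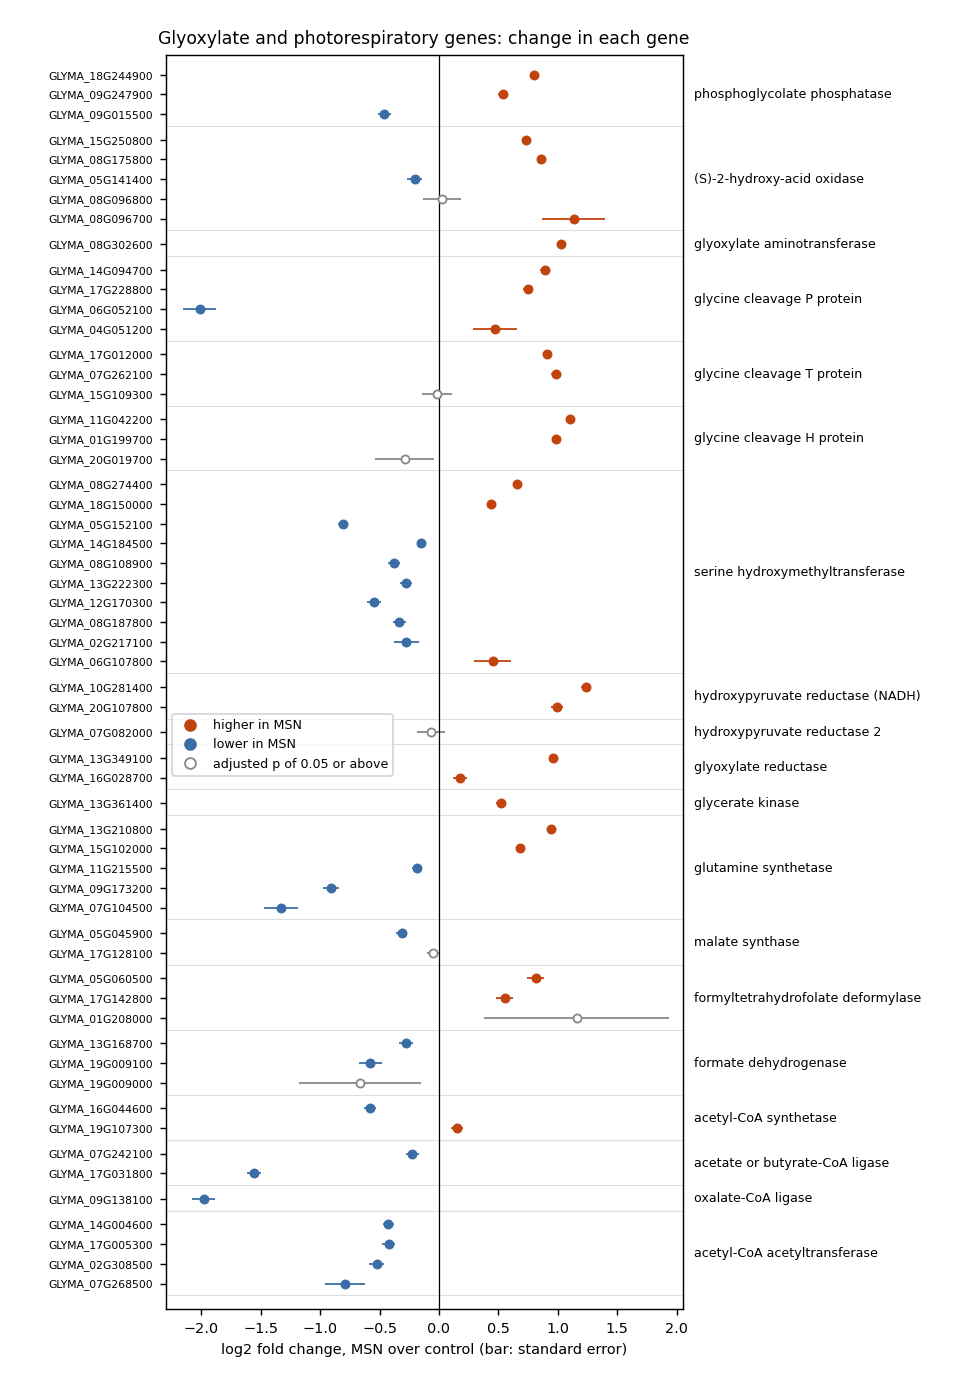
Log2 fold change, MSN over control, of each of the 57 genes, grouped by enzyme, most abundant copy (mean FPKM over all 6 libraries) first within each enzyme, with the standard error as a bar. Orange points were higher in MSN (26 genes), blue points lower (24 genes) and open points did not pass the test (7 genes); in serine hydroxymethyltransferase the 2 most abundant copies lie right of 0 and 7 of the other 8 left of it.

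Abundant and scarce copies were also counted over all families with several copies. In the 10 families with at least 3 copies, the 2 most abundant copies by mean FPKM over all 6 libraries were taken as leading. Of these 20 leading genes 16 were higher and 4 lower in MSN (median log2 fold change 0.74), and of the other 23 copies 3 were higher, 15 lower and 5 not past the test (median -0.29). Among all genes tested 29.6% were higher and 29.7% lower. By level the shares were 50.4 and 37.5% at 100 FPKM and above, 31.9 and 43.8% at 10 to 100 FPKM and 28.3 and 24.1% below 10 FPKM. How much level adds to the contrast between leading and other copies was not tested. The rule for leading copies was written after values were seen, and a mean that includes MSN libraries favours copies that are high there, so these counts are a description. With copies ranked in control leaves alone, 15 leading genes were higher and 5 lower (median 0.71), and of the other 23 copies 4 were higher and 14 lower (median -0.29). Under either ranking the same pair led serine hydroxymethyltransferase, with 77.5 ± 0.128% of its FPKM in MSN and 63.0 ± 0.253% in control, and phosphoglycolate phosphatase, with 91.7 ± 0.322% in MSN and 83.4 ± 0.299% in control (SD, n = 3 each). In glutamine synthetase the direction turned with the ranking. The pair ranked over all libraries, GLYMA_13G210800 and GLYMA_15G102000, held 75.9 ± 0.0643% in MSN and 59.8 ± 1.23% in control, and the pair ranked in control, GLYMA_11G215500 and GLYMA_15G102000, held 57.4 ± 0.138% in MSN and 65.7 ± 0.730% in control. Copies of a family share their annotation, and the labels do not say how reads that match several of them were assigned, so the values of single copies carry that uncertainty.

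**Figure D4:**
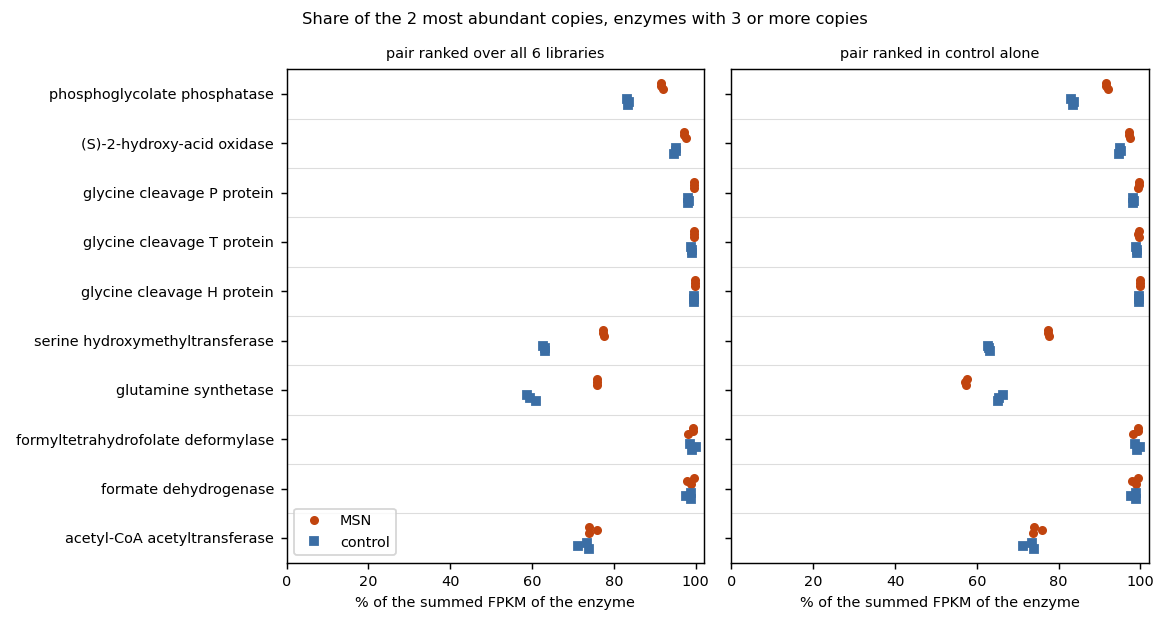
Share of each enzyme's summed FPKM held by its 2 most abundant copies, in %, for the 10 enzymes with 3 or more copies, with the copies ranked over all 6 libraries (left) or in control alone (right). Orange circles are the 3 MSN libraries and blue squares the 3 control libraries. Serine hydroxymethyltransferase is the same in both panels (means of 77.5% in MSN and 63.0% in control), whereas in glutamine synthetase MSN lies above control on the left (75.9% in MSN and 59.8% in control) and below it on the right (57.4% in MSN and 65.7% in control).

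In the glyoxylate cycle 1 of 2 member genes was lower in MSN leaves and the other did not pass the test. Malate synthase (EC 2.3.3.9), the member enzyme of that cycle, summed to 33.0 ± 0.457 FPKM in MSN leaves and 37.7 ± 0.835 FPKM in control leaves. GLYMA_05G045900 (chromosome 5, 4104012 to 4107788, plus strand) had 17.6, 17.7 and 17.9 FPKM in MSN and 21.9, 22.5 and 21.5 FPKM in control, and fell by 0.31 on the log2 scale (SE 0.05, edgeR adjusted p = 9.65e-06). GLYMA_17G128100, at 15.2, 15.0 and 15.6 FPKM in MSN and 15.4, 16.2 and 15.6 FPKM in control, did not pass the test (edgeR adjusted p = 0.45). Isocitrate lyase, the other enzyme particular to the cycle, was the gene with too few counts to be a member: it had 0 counts in every MSN library and 0, 8 and 8 counts in the control libraries, too few for any comparison at this depth.

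Among the 6 genes of formate and folate-bound carbon, the 2 enzymes went opposite ways. Formyltetrahydrofolate deformylase (EC 3.5.1.10), which frees formate from the folate pool and in Arabidopsis is needed for normal photorespiration, rose in both expressed copies. GLYMA_05G060500 had 17.4, 15.6 and 16.6 FPKM in MSN and 9.72, 9.69 and 8.71 FPKM in control (log2 fold change 0.82, SE 0.07, edgeR adjusted p = 1.19e-08). GLYMA_17G142800 had 15.3, 14.2 and 13.0 FPKM in MSN and 9.80, 9.62 and 9.44 FPKM in control (log2 fold change 0.55, SE 0.07, edgeR adjusted p = 3.59e-06). Both were apart between the groups. The third entry, GLYMA_01G208000, was near the count minimum, with 17, 18 and 45 counts in MSN and 21, 0 and 15 counts in control, and did not pass the test.

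Formate dehydrogenase, a mitochondrial enzyme that oxidises formate to carbon dioxide, was lower in MSN leaves in its 2 expressed copies. GLYMA_13G168700 had 10.54, 11.01 and 11.34 FPKM in MSN and 13.8, 12.6 and 13.3 FPKM in control, and fell by 0.28 on the log2 scale (SE 0.06, edgeR adjusted p = 0.000465). GLYMA_19G009100 had 4.82, 4.43 and 5.01 FPKM in MSN and 7.01, 7.65 and 6.57 FPKM in control, and fell by 0.58 (SE 0.10, edgeR adjusted p = 6.27e-05). Its neighbour GLYMA_19G009000, 1106 bp away, had 10 to 61 counts per library and did not pass (edgeR adjusted p = 0.279).

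The acyl-CoA enzymes, which make or use acetyl-CoA and related thioesters, were mostly lower. Of the 9 genes 8 were lower and 1 higher in MSN (median log2 fold change -0.52), and their sum was 89.3 ± 1.16 FPKM in MSN leaves and 127 ± 0.962 FPKM in control leaves. Shares among all genes tested were 29.7% lower and 29.6% higher. At 10 to 100 FPKM, the level of most of these genes, they were 43.8% lower and 31.9% higher. The largest fall of this group was that of GLYMA_09G138100 (chromosome 9, 34351919 to 34356555, plus strand), annotated as oxalate-CoA ligase (EC 6.2.1.8), which activates oxalate for breakdown, and by GO as a medium-chain fatty acid-CoA ligase. It had 1.87, 2.09 and 2.20 FPKM in MSN and 8.58, 7.51 and 8.28 FPKM in control, and fell by 1.98 on the log2 scale (SE 0.09, edgeR adjusted p = 1.93e-12). GLYMA_17G031800 (chromosome 17, 2331626 to 2336016, minus strand), an acetate or butyrate-CoA ligase (EC 6.2.1.1 and 6.2.1.2), had 5.27, 5.08 and 4.98 FPKM in MSN and 15.2, 14.3 and 15.5 FPKM in control, and fell by 1.56 (SE 0.06, edgeR adjusted p = 1.33e-13). The fitted levels in MSN leaves were 0.25 and 0.34 times those in control leaves for these 2 genes. The more abundant ligase of this EC entry, GLYMA_07G242100, had 17.2, 18.2 and 16.3 FPKM in MSN and 19.7, 20.6 and 20.0 FPKM in control, a fall of 0.22 (SE 0.05, edgeR adjusted p = 0.0011).

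Acetyl-CoA synthetase, which activates free acetate, had 2 copies that changed places. GLYMA_16G044600 had 12.8, 11.8 and 12.7 FPKM in MSN and 19.1, 18.7 and 17.8 FPKM in control, and fell by 0.58 on the log2 scale (SE 0.05, edgeR adjusted p = 1.19e-08). GLYMA_19G107300, the 1 gene of this group that rose, had 13.6, 13.1 and 13.7 FPKM in MSN and 12.69, 11.99 and 11.61 FPKM in control (log2 fold change 0.15, SE 0.05, edgeR adjusted p = 0.0128). That call was lost without MSN replicate 3 (edgeR adjusted p = 0.0606) and without control replicate 3 (edgeR adjusted p = 0.0661). All 4 acetyl-CoA acetyltransferase genes (EC 2.3.1.9), which join acetyl-CoA units into acetoacetyl-CoA, were lower. GLYMA_14G004600, GLYMA_17G005300, GLYMA_02G308500 and GLYMA_07G268500 had log2 fold changes of -0.43, -0.42, -0.52 and -0.79.

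The genes left out by the annotation rule show where the set borders other pathways. Over all 86 genes of the KEGG pathway 85 were tested, of which 37 were higher and 39 lower in MSN. Shares over all genes tested were 29.6% higher and 29.7% lower. Of the 9 dropped genes shared with carbon fixation 6 were higher and 3 lower, and of the 20 shared with the citrate cycle 5 were higher and 13 lower. These counts overlap: the 5 malate dehydrogenase genes (EC 1.1.1.37) are in both groups. The 3 Rubisco genes and GLYMA_02G038100, given below, are among the 9. All 3 Rubisco genes were higher. Of the 4 genes of catalase, the peroxisomal enzyme that removes the hydrogen peroxide of glycolate oxidation, 2 were higher and 2 lower. GLYMA_02G038100, an alanine and glutamate-glyoxylate aminotransferase entry that was dropped through carbon fixation, had 86.7 ± 0.256 FPKM in MSN and 62.1 ± 0.602 FPKM in control (log2 fold change 0.48, edgeR adjusted p = 3.61e-10). Of the 5 citrate synthase genes 4 were lower and 1 did not pass the test.

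Annotation lists around the pathway were counted as well, beside 29.6% higher and 29.7% lower over all genes tested. GO lists 10 genes under photorespiration, of which glycerate kinase is the 1 member and 3 are Rubisco genes, and all 10 were higher. Of the 6 genes under the glyoxylate cycle 5 were tested, and 3 were lower and 2 did not pass the test. The 2 malate synthase members are among them, and without these 2 were lower and 1 did not pass of 3 tested. Without members, 21 of 60 tested genes of glycine, serine and threonine metabolism were higher and 22 lower, and of 105 peroxisome genes 32 were higher and 44 lower. Nitrogen metabolism had 9 higher and 9 lower of 23, and the folate carbon pool 3 higher and 2 lower of 12.

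Markers of other leaf cells and of other organs were read in the same libraries. The background for the counts below is 29.6% higher and 29.7% lower over all genes tested. Phloem and vein genes summed to 114 to 123 FPKM in MSN and 104 to 105 FPKM in control, with 21 of 41 tested higher and 3 lower. Guard cell genes, with 4 of 16 higher and 1 lower, summed to 25.8 to 27.4 FPKM in MSN and 24.9 to 28.0 FPKM in control. Senescence genes, 5 of 17 higher and 5 lower, summed to 393 to 400.2 FPKM in MSN and 422 to 425 FPKM in control. Genes of nutrient reservoir activity, the seed list, reached 2260 to 2334 FPKM in MSN and 1283 to 1315 FPKM in control, with 14 of 48 higher and 12 lower. Nodulation genes summed to 53.6 to 55.8 FPKM in MSN and 50.6 to 52.5 FPKM in control, with 2 of 7 higher and 1 lower. Genes at 0 in every library of a group numbered 5 in MSN and 10 in control of the 78 seed genes, 1 in MSN and 6 in control of the 30 guard cell genes, and 2 of the 48 phloem and vein genes in control. None of these lists holds a member, and their part in the members' values was not tested.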

How the data were processed

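Polyadenylated RNA from leaves was sequenced in 3 MSN and 3 control libraries, grouped by their titles. The deposited table gives, per the file headers, a raw whole-number count and the authors' FPKM per gene and library. The submitters' processing notes list DESeq2 1.34.0 and R 4.1.2 without saying for what. Not given in the sources used here are the aligner, the counting program, its strand setting, the genome build and the annotation. Coordinates are as deposited. A reference gene table (Glycine_max_v4.0) matched 0 identifiers, so no sequences are shown.

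For the comparison, edgeR 4.0.16 (R 4.3.3) was run on the deposited counts (quasi-likelihood test, TMM factors of 0.992 to 1.01, filterByExpr, 2-sided, Benjamini-Hochberg over 39203 genes, threshold 0.05). The common biological coefficient of variation was 0.0867, and the median over members of the coefficient of variation between libraries was 4.30% in MSN and 4.41% in control. Standard errors were derived from the F statistic. The fit was tested on simulated data. Limma 3.58.1 and DESeq2 1.42.0 served as alternatives. Counting error weighs most on the members with few counts, which range from 116 counts over the 6 libraries upward.

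The members, roles and lists were chosen with earlier results of these data known. Genes given in full were, by rule, the most abundant member of each EC number at 5 FPKM and above, the 10 largest rises and 10 largest falls among called members without overlap, and the core and glyoxylate cycle genes. The other members are given so that all are accounted for, and GLYMA_17G037900 and GLYMA_02G038100, which are not members, were picked after their values were seen. Marker lists were taken by KEGG and GO term. Sequences, unstressed plants and gene set tests are not part of this account.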

Additional observations from a re-analysis of the deposited data

How the results depend on the processing

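The counts of members called were 22 to 26 higher and 23 to 24 lower over the other scalings, tests, filters and units and over leaving out each library in turn (22 to 25 higher and 23 to 24 lower when a library was left out). For all genes, leaving out a library gave 10515 to 11206 higher and 10849 to 11246 lower. With a log2 fold change of at least 1, 3636 genes were higher and 2748 lower in all, with 4 members higher and 4 lower. With none of the pathway genes dropped, 39 genes were lower in place of 24, which follows from the added genes, and 37 were higher. The fold threshold aside, 52 of the 57 members kept their call or lack of it in every alternative fit that gave them a value (the fit for genes of mean FPKM at least 1 held 53 members), and 5 lost it in at least 1: GLYMA_19G107300, GLYMA_04G051200, GLYMA_16G028700, GLYMA_02G217100 and GLYMA_06G107800. None was called in the opposite direction. With copies ranked in control alone, chosen after seeing the data, the glutamine synthetase leading pair's share differed by -8.33 percentage points, MSN minus control, in place of 16.1, because the ranking puts GLYMA_11G215500 in the pair. Signs changed in 4 genes that had passed no test. GLYMA_17G128100 had a log2 fold change of 0.0052 with quantile normalization. GLYMA_08G096800 had -0.048 with quantile normalization and -0.099 to 0.17 with a library left out, below 0 without MSN replicate 3 (-0.051) or control replicate 2. GLYMA_15G109300 had 0.028 with upper-quartile scaling and -0.074 to 0.073 with a library left out, above 0 without MSN replicate 1 (0.0049) or control replicate 1. GLYMA_07G082000 had -0.14 to 0.015 with a library left out, above 0 without MSN replicate 1 or control replicate 3 (0.0045). The cause of these changes was not tested. Upper-quartile scaling moved the median of all genes to 0.049, the largest shift of the scalings tried.

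With the replicate number as a block, 26 members were higher and 24 lower, and of all genes 11280 were higher and 11461 lower; no member's call changed. The labels do not say whether same-numbered libraries have anything in common. Deviations of same-numbered libraries correlated at -0.0026, 0.0104 and 0.0018, and those of other pairs at -0.0152 to 0.0136. No pairing was seen in these values, but with so few libraries they cannot exclude one. Depth limits the 2 members with fewest counts, GLYMA_01G208000 and GLYMA_19G009000, whose spread between libraries reached 90.4% in control and 62.9% in MSN.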
